A study of Mus musculus with 2 samples.

Results

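The cells described here were drawn from the periocular mesenchyme, the connective tissue around the embryonic mouse eye, and were chosen by the UMIs that each cell held of a small set of genes. A UMI, or unique molecular identifier, marks 1 captured RNA molecule. Kept cells had at least 200 genes, at least 2000 UMIs and at most 15% mitochondrial UMIs. A kept cell was selected if it held at least 10 UMIs of Col1a2 plus Col3a1, which encode fibrillar collagen chains, a UMI in at least 2 of 5 markers (Scx, Tnmd, Meox2, Meox1 and Mkx), UMIs in at most 1 gene of each of a pair of sets (Osr2, Osr1, Foxl2, Tbx22 and Alx1; Kera, Matn4, A2m, Cpxm2 and Dpep1), and none of Pecam1 or Myod1. The rule found 583 of 20430 kept cells, 338 of 9722 in the control library and 245 of 10708 in the mutant library. They are called gated cells below, and were compared mainly with the other collagen-rich cells, which passed the same collagen, Pecam1 and Myod1 gates (2923 control and 2141 mutant cells). These others include cells with 2 or more markers that the limits on the pair of sets removed.

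Single cell libraries of 2 genotypes at e15.5 were prepared with 10x Genomics 3′ chemistry, 1 library per genotype, each from 3 pooled eye cups without cornea, lens or optic nerve. Control embryos were Myrf fl/fl: the transcription factor gene Myrf is floxed on both alleles, and no Cre is named. Mutant embryos (Rx>cre Myrf fl/fl) carried the same floxed alleles together with a Cre driven by Rx, a gene known from the eye field and retina. Whether Cre had acted in the gated cells was not measured. Because there was 1 library per genotype, no difference between genotypes has a replicate check, no p-value is given, and the 95% intervals below cover counting error only.

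Tendons and ligaments are built by fibroblasts that express Scx, a basic helix-loop-helix transcription factor, and later Tnmd, a membrane glycoprotein of mature tenocytes. Mkx is a homeodomain factor that promotes tendon collagen expression, and Meox1 and Meox2 are homeodomain factors of paraxial mesoderm and its connective tissue derivatives. In the head, neural crest and mesoderm mesenchyme around the eye forms the tendons of the extraocular muscles, the sclera, the corneal stroma and the lid mesenchyme. TGF-beta and FGF signals are known inducers of Scx.

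In GRCm38 coordinates (GENCODE vM21), Scx lies at chr15:76457452-76459458 and Meox2 at chr12:37108540-37179534, both on the plus strand. Tnmd is at chrX:133850980-133865577 (plus strand) and Meox1 at chr11:101877510-101894374 (minus strand). SCX binds E-boxes, written CANNTG, so the 250 bases upstream of the RefSeq start site (GRCm38.p6) were searched on both strands, on which this palindromic motif reads the same. Of 11 genes looked up, the 5 markers and 6 tendon matrix genes, 7 had an entry in the set of promoter sequences used here. Scx, Meox1, Mkx and Ptx4 had none in that set, though each has a GENCODE position. The sequences of Tnmd, a marker without the motif, and of 3 matrix genes that were higher in gated cells in both libraries are shown 5′ to 3′ in the direction of transcription, with E-boxes in capitals.
Tnmd, chrX:133850758-133851007, plus strand: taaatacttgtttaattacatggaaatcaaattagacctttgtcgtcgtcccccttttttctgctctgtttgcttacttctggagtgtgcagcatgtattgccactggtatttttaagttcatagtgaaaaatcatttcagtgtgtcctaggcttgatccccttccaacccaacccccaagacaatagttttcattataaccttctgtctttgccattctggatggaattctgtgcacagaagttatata
Tnc, chr4:64047016-64047265, minus strand: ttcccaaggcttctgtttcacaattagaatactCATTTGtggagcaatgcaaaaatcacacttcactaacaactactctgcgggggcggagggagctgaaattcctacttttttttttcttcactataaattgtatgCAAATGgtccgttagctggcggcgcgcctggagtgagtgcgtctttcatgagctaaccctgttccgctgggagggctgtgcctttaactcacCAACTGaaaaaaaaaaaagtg
Chodl, chr16:78930698-78930947, plus strand: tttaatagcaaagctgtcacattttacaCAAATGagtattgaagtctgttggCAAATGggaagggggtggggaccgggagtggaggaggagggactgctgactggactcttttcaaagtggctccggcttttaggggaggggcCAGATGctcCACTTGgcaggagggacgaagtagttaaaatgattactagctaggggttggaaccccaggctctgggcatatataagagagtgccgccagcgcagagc
Cilp, chr9:65264930-65265179, plus strand: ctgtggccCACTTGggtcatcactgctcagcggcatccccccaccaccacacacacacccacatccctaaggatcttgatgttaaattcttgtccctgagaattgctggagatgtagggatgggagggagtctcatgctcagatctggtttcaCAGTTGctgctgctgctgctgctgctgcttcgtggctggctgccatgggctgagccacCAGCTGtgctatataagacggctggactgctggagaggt
Chodl held 4 E-boxes, Tnc 3 from the upstream of its 2 listed start sites, Cilp 3, and Meox2, Fmod and Thbs4 1 each, while Tnmd held 0. At least 1 E-box was present in 66.2% of all 32851 windows of this length, at least 3 in 12.2% and at least 4 in 3.84%, so a match by itself describes only the letters of the window.

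The libraries held 13017 control and 13880 mutant barcodes with 132436812 and 135678970 UMIs. Median depth of gated cells was 14761 UMIs (control) and 14819 UMIs (mutant), with median mitochondrial shares of 4.91% and 4.87%. Myrf itself gave 432 UMIs in kept control cells and 154 in kept mutant cells (3.42 and 1.18 counts per 1000000 UMIs), of which gated cells held 12 and 5. Xist was detected in 97.6% of control and 41.2% of mutant gated cells, and a UMI of a Y-linked gene in 0 of 338 and in 144 of 245 (58.8%). The control pool therefore held no cell with Y-linked RNA among the gated cells whereas the mutant pool held many, and sex and genotype cannot be told apart in part of what follows. The 2 libraries shared 69 barcodes, 3 of them on gated control cells. Scrublet marked 5.92% of control and 8.57% of mutant gated cells as doublets, against 6.98% and 6.91% of the other collagen-rich cells.

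All 5 markers were part of the choice of cells, so their levels are given as a description. Scx was the most abundant, at 480 CPM (counts per 1000000 UMIs of the cell set) in control cells (462 to 499) and 382 in mutant ones, and was detected in 96.2% and 94.3% of gated cells. Meox1 was at 248 and 204 CPM, in 83.4% and 81.2% of cells. Meox2 was lower, at 127 and 104 CPM, in 43.5% and 38.8% of cells.
Tnmd, the marker of mature tenocytes, was at 110 and 133 CPM but only in 26.9% and 29.4% of cells. Mkx was the lowest, at 52.8 and 48.6 CPM, in 37.9% and 37.1% of cells. In retinal cells of the same libraries, kept cells with UMIs in at least 2 genes of a set for retinal progenitors (Sfrp2, Dapl1, Hes5, Rax and Six6 among them) and fewer than 2 collagen UMIs, no marker was detected in more than 1.21% of cells, at median depths of 9785 and 9321 UMIs. Each gene's counts come from the 3′ end of its transcripts, so these levels order the markers by captured molecules.

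The combination of Scx and Meox1 without any other marker was the most frequent, in 132 control (39.1%) and 100 mutant cells (40.8%). All 5 markers were found together in 34 control (10.1%) and 21 mutant cells (8.57%). Scx, Meox2, Meox1 and Mkx without Tnmd were found in 35 and 16 cells. By number, 49.7% of control and 52.7% of mutant gated cells held 2 markers, 22.8% and 22.4% held 3, and 27.5% and 24.9% held 4 or 5. The threshold of 2 therefore decided many cells: another 338 control and 232 mutant cells met every other condition with 1 marker, and in those Scx was at 64.2 and 50.2 CPM and Tnmd at 2.78 and 6.17. Just inside, cells with exactly 2 markers had Scx at 192 and 177 and Tnmd at 11.1 and 4.83 CPM.

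To look at a marker that the choice did not use, the cells were chosen again with each marker left out in turn, by 2 of the remaining 4, and set beside the collagen-rich cells that held fewer than 2 of those 4. Tnmd was then detected in 24.2% of the chosen control cells (95% exact interval 19.7 to 29.3) against 5.90% of those with fewer (5.00 to 6.90), and in 27.0% of mutant cells (21.5 to 33.1) against 8.35% (7.14 to 9.69). Mkx was detected in 36.2% against 3.14% of control cells and in 33.9% against 2.54% of mutant cells. Meox2 was in 40.7% against 13.4% and in 36.2% against 9.23%.
Meox1 was in 71.1% against 19.4% of control and 66.2% against 19.8% of mutant cells, and Scx in 92.9% against 32.6% and in 88.9% against 26.2%. Every marker was thus detected more often in cells chosen without it, in both libraries. The chosen cells were deeper, with medians of 14654 to 16461 UMIs against 13787 to 14399 in the others. They also had to pass the limits on the Osr2 and Kera sets, which the others did not have to. The part of depth and of these limits was not tested, and the 5 markers were themselves picked with earlier results of these data known. Among pairs of markers over all collagen-rich cells, Tnmd and Mkx met in the same cell 3.27 times as often as their separate shares would give in the control (113 cells) and 3.52 times in the mutant (96 cells), while Tnmd and Meox1 met 1.44 and 1.18 times as often. With cells thinned to 5000 UMIs these factors were 4.34 and 5.43 for Tnmd with Mkx, and 1.67 and 1.13 for Tnmd with Meox1.

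**Figure D1:**
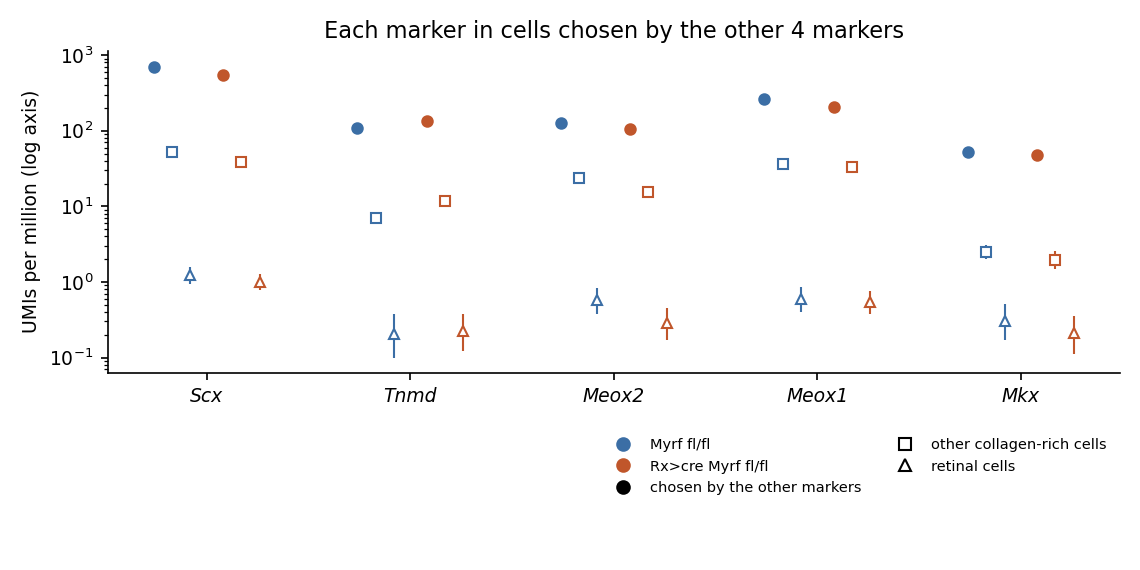
CPM (log axis) of each marker in control (blue) and mutant (orange) cells; filled circles are cells chosen by the other 4 markers, squares the collagen-rich cells with fewer than 2 of those 4 and triangles retinal cells, with bars for 95% Poisson intervals. In each library the filled circles lie above the squares for all 5 markers, and retinal cells lie at or under 1.23 CPM.

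The gates that remove other mesenchyme also removed many cells with tendon markers. Of 878 control and 565 mutant collagen-rich cells with at least 2 markers, 384 and 194 held 2 or more genes of the Osr2 set and 199 and 158 held 2 or more of the Kera set, with 43 and 32 cells lost to both. The cells lost to the Osr2 set still had Scx at 332 CPM in the control and 289 in the mutant, and those lost to the Kera set had Tnmd at 82.7 and 155. In the gated cells Kera, a corneal stroma and tendon proteoglycan of which the rule allows UMIs if no other gene of its set is present, stayed at 129 and 122 CPM, in 29.6% and 28.6% of cells, whereas Matn4 was at 6.10 and 6.02 and Osr2 at 28.5 and 31.5.

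To see whether the gated cells formed a group of their own, the 5647 collagen-rich cells were clustered on variable genes without the rule's genes. The gated cells spread over many of the 24 clusters. Cluster 13, led by Dgkb, Gsc, Nppc, Grem1, Ssc5d, Htr1b, Lgr5, Ltbp2, Eya1 and Chodl, held 106 control (31.4%) and 56 mutant gated cells (22.9%) and had the highest level of each of the 5 markers in both libraries. There Scx stood at 856 CPM in the control and 683 in the mutant, Tnmd at 247 and 471, Meox2 at 410 and 336, Meox1 at 341 and 234, and Mkx at 122 and 107.
Cluster 2, led by Fmo1, Lgi2, Tagln, Acta2, Thbd, Itga9 and Timp3, held 97 control (28.7%) and 63 mutant gated cells (25.7%). Its gated cells had Tnmd at 12.7 and 15.1 and Mkx at 16.5 and 16.9 CPM, with Tagln, an actin-binding protein of contractile cells, at 1080 and 1088. Cluster 1, led by Cdh10, Emcn, Pgf, Crym and Aldh1a2, held 24 and 25 gated cells, in which Tnmd and Mkx had 0 UMIs, Scx was at 186 and 199 and Crym, a thyroid hormone binding protein, at 1194 and 1165 CPM. In cluster 7 the gated cells (28 and 17) had Meox1 at 498 and 423 and Osr2 at 179 and 218 CPM.

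The number of markers followed the clusters. Cluster 13 held 74.2% of control and 63.9% of mutant gated cells with 4 or 5 markers, but 5.36% and 2.33% of those with 2. Cluster 17, led by mitotic genes such as Aspm, Kifc1 and Kif23, held another 11 and 8 of the cells with 4 or 5 markers. Only part of cluster 13 was gated: 116 of its 246 control and 42 of its 127 mutant cells had at least 2 markers but 2 or more genes of the Osr2 set, and 40 and 39 had 2 or more of the Kera set, some cells counting in both, with Kera at 405 and 499 CPM over the whole cluster. Cluster 13 made up 7.54% of control (6.66 to 8.50) and 5.32% of mutant collagen-rich cells (4.46 to 6.30), a ratio of 0.706 (0.565 to 0.878) that rests on 1 library per genotype. Since the gated cells fell in many clusters and in those of clusters 1 and 2 Tnmd and Mkx were at 0 or low, the set is called by its rule here and not by the name tendon-like.
A further 21 control (6.21%) and 24 mutant gated cells (9.80%) fell in 8 clusters in which the summed level of a list for another cell type (muscle, pericyte, neural retina, pigment epithelium, melanocyte and Schwann cell, erythroid or macrophage) was at least 5 times that of all collagen-rich cells. Of all collagen-rich cells, 7.54% and 10.6% fell in the same clusters. Another 12 and 14 fell in cluster 6, led by genes of retinal progenitors such as Fgf15 and Six6.

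**Figure D2:**
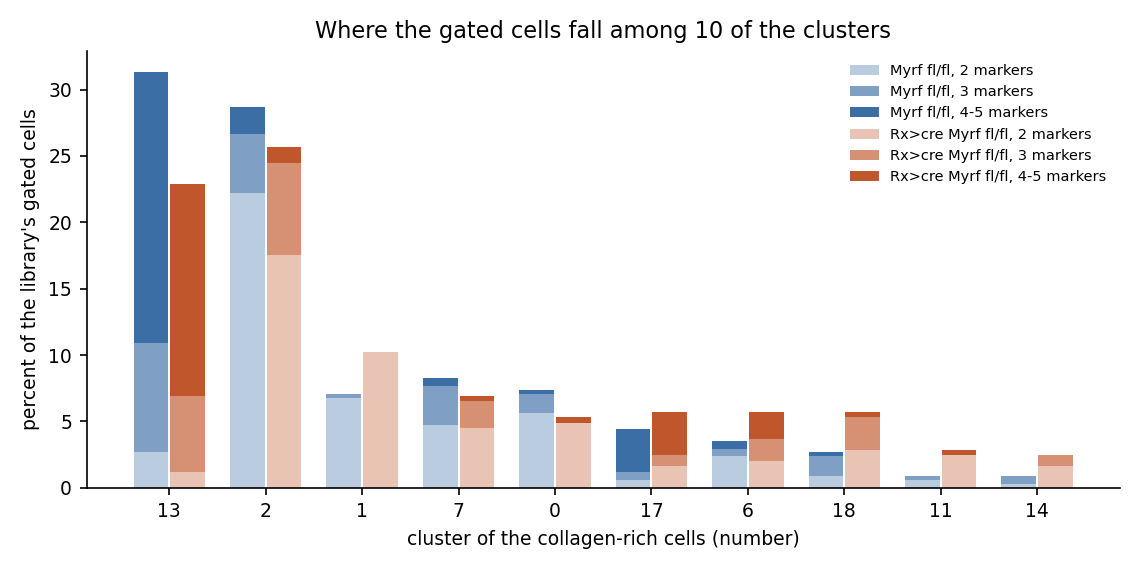
Percent of each library's gated cells (vertical axis) in the 10 clusters of collagen-rich cells that held most of them (horizontal axis, cluster number); blue is control, orange mutant, and the shade gives the number of markers with a UMI. Cluster 13 holds 31.4% of control and 22.9% of mutant gated cells, mostly with 4 or 5 markers, and cluster 2 holds 28.7% and 25.7%, mostly with 2.

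Within the gated cells, genes that the rule did not use differed between cells with many and few markers. The contrast is a description, since the number of markers was read from the same cells. Thbs4, a tendon matrix thrombospondin, was at 11.4, 39.0 and 130 CPM in control cells with 2, 3 and 4 or 5 markers, and at 20.2, 50.7 and 91.7 in mutant cells. Tnc, which encodes tenascin-C of tendon and its junctions, stood at 31.8, 82.6 and 122 in the control and 22.6, 67.2 and 111 in the mutant.
Fmod, a collagen-binding proteoglycan, was at 16.1, 29.6 and 50.4 in the control and 26.5, 22.8 and 78.3 in the mutant. Htra1, a secreted serine protease, went from 25.4 to 301 CPM between 2 and 4 or 5 markers in the control and from 53.5 to 337 in the mutant. Nppc, the precursor of C-type natriuretic peptide, went from 2.5 to 70.0 and from 1.92 to 69.3. Kera was at 8.21 and 13.5 CPM in cells with 2 markers and at 382 and 316 in those with 4 or 5, so this gene of an excluded set was most abundant in the gated cells with most markers.
The other direction was seen for Crym (394 and 359 CPM with 2 markers, 30.3 and 46.8 with 4 or 5), for Aldh1a2, a retinoic acid synthesis enzyme (68.2 and 70.8 against 0.673 and 10.8), and for Cldn11, a tight junction protein (84.3 and 54.0 against 4.71 and 12.6). Foxc1, a transcription factor of periocular mesenchyme, stood at 128 and 157 against 65.9 and 51.3, and Rgs5, a marker of pericytes, at 40.0 and 68.4 against 4.04 and 11.7. Six2, a homeodomain factor of mesenchymal progenitors, was at 119 and 77.6 CPM with 2 markers and 58.5 and 47.7 with 4 or 5. Median depth was alike across these classes, from 14540 to 16303 UMIs.
Over the tendon matrix list of 27 genes, the median log2 ratio of cells with 4 or 5 markers to cells with 2 was 0.90 in the control (20 genes with 50 or more UMIs, 8 at least 2-fold higher and 3 lower, where 3% of all 8102 genes were higher and 3.97% lower) and 0.80 in the mutant (21 genes, 7 higher and 1 lower, where 2.29% of all 7288 genes were higher and 2.73% lower), beside -0.03 and 0.02 over all genes. For neural retina genes it was -1.83 in the control and 0.04 in the mutant.

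**Figure D3:**
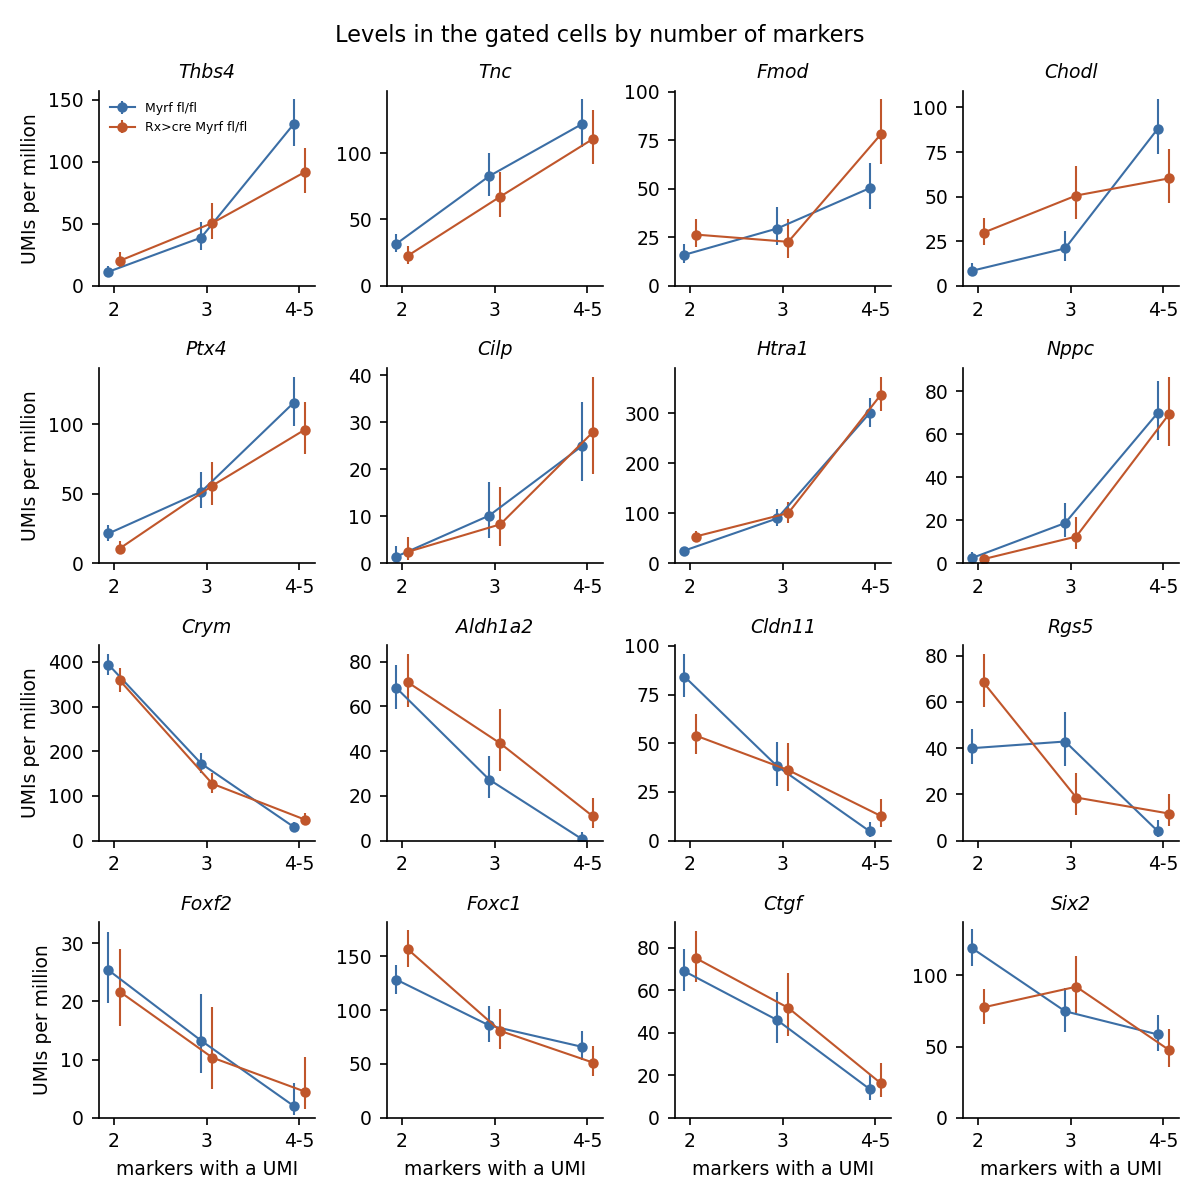
CPM (vertical axes, from 0) of 16 genes in control (blue) and mutant (orange) gated cells with 2, 3 or 4 to 5 markers (horizontal axes), with 95% Poisson intervals as bars. The upper 8 genes are highest with 4 or 5 markers in both libraries and the lower 8 are lowest there, as for Htra1 (25.4 to 301 in the control) and Crym (394 to 30.3).

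Against the other collagen-rich cells, the gated cells as a whole had higher Six2 and Eya1, while tendon matrix genes went both ways. The contrast uses the cells that the rule chose, so it is a description. The other collagen-rich cells include those with 2 or more markers that the Osr2 and Kera sets removed, so they are not cells without markers. Of 12750 genes with 50 or more UMIs per library, 101 were at least 2-fold higher in gated cells in both libraries (0.792%) and 349 at least 2-fold lower (2.74%). Of 13 tendon regulators measured, 3 were at least 2-fold higher in both libraries and 0 lower, Six2 and Eya1 among the former, while the list's medians were -0.17 in the control and -0.15 in the mutant and 5 genes lay above 0 in both (30.4% of all genes tested did). Six2 was at 92.6 CPM against 29.5 in the control and 72.9 against 23.1 in the mutant.
Its log2 ratios were 1.65 (1.5 to 1.8) and 1.66 (1.46 to 1.85), and Eya1, a phosphatase and transcriptional cofactor, gave 1.48 and 1.30. Eya1 was at 2.86 and 3.85 CPM in gated cells with 2 markers and at 38.3 and 34.2 in those with 4 or 5. Gsc, the homeodomain factor goosecoid of head mesenchyme, was at 18.8 CPM against 2.94 in the control and 13.7 against 3.24 in the mutant. Lgr5, a receptor of R-spondins, gave log2 ratios of 2.01 and 2.20, and Rgcc, a cell cycle regulator, 1.90 and 1.99. Lgr5 too was lower in gated cells with 2 markers (4.28 and 10.6 CPM) than in those with 4 or 5 (75.3 and 50.4).

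Of 26 tendon matrix genes measured, 5 were at least 2-fold higher in both libraries and 7 at least 2-fold lower (0.792% and 2.74% over all genes tested). Medians over the list were -0.38 in the control and -0.12 in the mutant, beside -0.03 and 0.00 over all genes. Cilp, a cartilage and tendon matrix protein, was at 9.69 CPM against 0.701 in the control and 10.6 against 1.47 in the mutant. Chodl, a membrane lectin, gave log2 ratios of 2.12 and 2.02, Tnc 1.78 and 1.78, Ptx4 1.52 and 1.71 and Col11a2, a fibrillar collagen chain, 2.34 and 1.70.
Thbs4 passed only in the control, with log2 ratios of 2.09 (1.88 to 2.30) and 0.86 (0.63 to 1.09). Its level in gated cells was alike, 49.5 and 46.5 CPM, and the level in the other cells differed, 11.6 and 25.6. The 7 lower genes were Thbs2, Col14a1, Col6a1, Col6a2, Col6a3, Dcn and Lum, of which Col14a1, a fibril-associated collagen, fell furthest, at 32.7 CPM against 267 in the control and 38.3 against 350 in the mutant. Comp, a further tendon matrix gene, had 0 UMIs in control and 1 in mutant gated cells.
In the gated cells with 4 or 5 markers alone, the list's median was 0.06 in the control and -0.03 in the mutant, and 248 genes were at least 2-fold higher in both libraries, 75 of them among the 101 above.

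**Figure D4:**
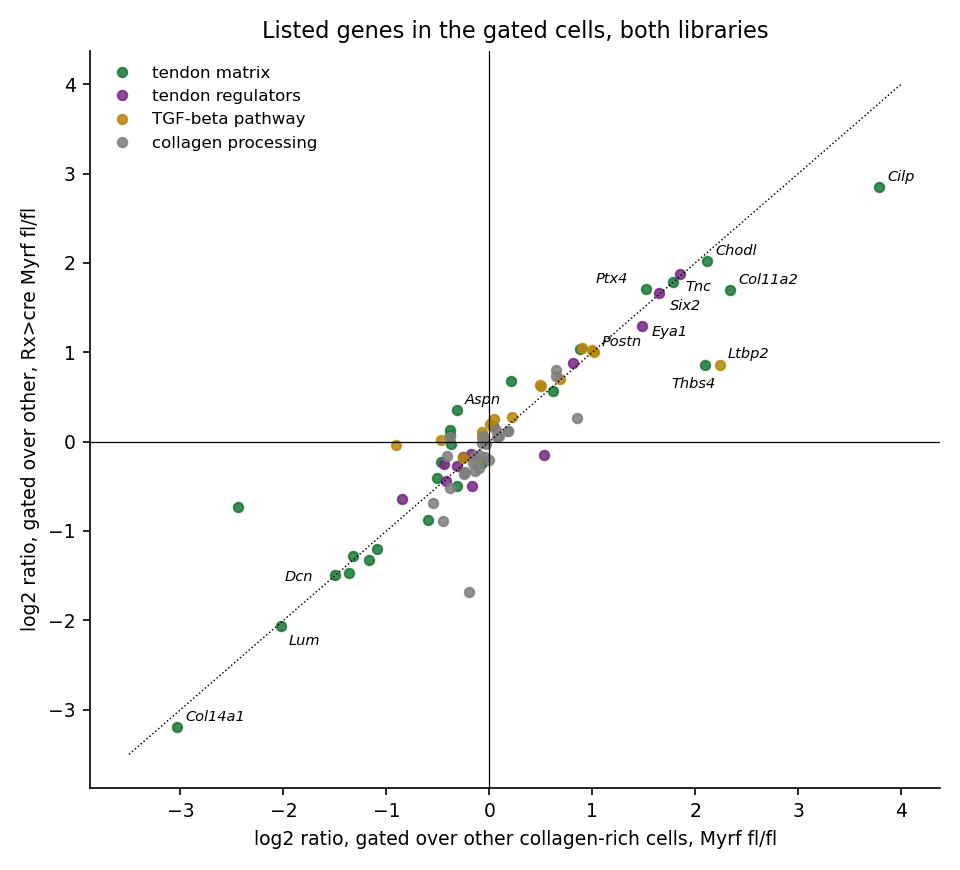
log2 ratio of gated over other collagen-rich cells in the control (horizontal axis) and the mutant (vertical axis) for genes of 4 lists that had 50 or more UMIs per library; the dotted line marks equal ratios. Most genes lie near the line, with Cilp highest and Col14a1 lowest, while Thbs4 and Ltbp2 lie below it, at 0.86 in the mutant against 2.09 and 2.24 in the control.

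In the TGF-beta list, the ligands Tgfb2 and Tgfb3 and the matrix genes Postn and Tgfbi were higher in gated cells in both libraries, and the list's medians were 0.03 and 0.22. Tgfb2 was at 251 CPM against 156 in the control and 211 against 129 in the mutant, and Tgfb3 gave log2 ratios of 0.99 and 1.02, while Tgfb1 gave -0.47 and 0.02. The receptors Tgfbr1 and Tgfbr2 gave 0.04 and -0.06 in the control and 0.25 and 0.04 in the mutant. Postn, a matrix protein known as a TGF-beta target, was the 1 gene of 18 measured that passed in both libraries, at 740 against 366 and 941 against 469 CPM, log2 ratios of 1.01 and 1.01, and Tgfbi, another known target, gave 0.90 and 1.05.
In the FGF list Etv4, a transcription factor induced by FGF, was the 1 gene of 13 at least 2-fold higher in both libraries, with log2 ratios of 1.48 and 1.17, and Spry2, an FGF feedback inhibitor, gave 0.88 and 0.69. The receptor genes Fgfr3 and Fgfr4 were at least 2-fold lower in both, on 2 and 5 control and 5 and 6 mutant UMIs, and the list's medians were 0.20 and -0.14. In the cartilage and enthesis list 0 of 13 genes were 2-fold higher and 3 were at least 2-fold lower in both libraries (0.792% and 2.74% over all genes tested), with medians of 0.09 and -0.01. The lower genes were Col9a1 (log2 ratios of -1.14 and -1.44), Hapln1 (-3.12 and -1.90) and the hedgehog inhibitor Hhip (-1.17 and -1.31). Sox9, which marks cartilage and the progenitors of tendon attachments, was at 90.5 against 43.0 CPM in the control and 76.5 against 39.9 in the mutant. Col2a1, the main cartilage collagen, gave 1.35 and 0.66. Matn1 had 0 UMIs and Acan 4 and 7, so cartilage markers went both ways. The list summed to 450 CPM in gated and 339 in other collagen-rich cells of the control, and to 403 and 399 in the mutant. No gene of the 26 collagen processing genes measured passed in either direction, with medians of -0.08 and -0.15.
Among transcription factors of periocular and craniofacial mesenchyme, 5 of 19 were at least 2-fold lower in both libraries and none was higher, with medians of -0.17 and -0.13. Over all genes tested, 2.74% were lower and 0.792% higher. The rule left out cells with 2 or more genes of the Osr2 or Kera set, and its part in these lower levels was not tested. Twist1 was at 202 CPM against 508 in the control and 160 against 432 in the mutant. Tfap2b gave log2 ratios of -2.82 and -1.94.

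Of genes known from contractile cells, chosen here after their values were seen, Cnn1, calponin of smooth muscle, was at 23.2 CPM against 3.15 in the control and 20.2 against 4.38 in the mutant, Actg2 at 28.0 against 4.23 and 21.2 against 5.8, and Tagln at 575 against 155 and 473 against 171, with 53.6% of the mutant UMIs of Cnn1 and 61.4% of those of Actg2 in 5 cells. Of 5 pericyte genes measured, 0 were 2-fold higher in both libraries, with medians of -0.27 and -0.07, and Myh11 of mature smooth muscle had 10 and 7 UMIs. The 5 richest cells held 92.1% of the 89 control UMIs of Ms4a4b and 92.5% of the 134 mutant UMIs, so the highest ratios of the genes named by rank, 4.51 and 5.40, came from few cells, as did 73.0% and 83.6% of the UMIs of Ms4a6c. Fam159b was spread more widely, in 16.9% and 13.1% of gated cells against 2.12% and 1.49% of the others.
Prokr2, a prokineticin receptor, gave 2.64 and 2.66, and other genes named by rank were Caln1, Tmem30b and Plscr2, with log2 ratios from 1.88 to 2.70. The 8 lowest genes were high in collagen-rich cells of the Kera set, except Tnxb, which was at 33.4 and 62.2 CPM in cells of the Osr2 set. The rule left out cells with 2 or more genes of either set, so these low levels follow in part from the choice of cells. Pantr1 had 2 and 5 UMIs in gated cells, Pou3f3 2 and 6, Chrna1 1 and 1, Gm28175 1 and 1, Col7a1 10 and 12, Dkk1 9 and 3, and Tnxb 4 and 5. Aldh3a1 had 0 and 0, where 3 counts would be 0.539 and 0.722 CPM and the other cells had 15.8 and 21.9.

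The share of gated cells among all kept cells was 3.48% in the control (3.12 to 3.86) and 2.29% in the mutant (2.01 to 2.59), a ratio of 0.658 (0.556 to 0.778). Collagen-rich cells as a whole were 33.5% and 22.3% of kept cells, so the share of gated cells among them was alike, 10.4% (9.34 to 11.5) and 10.3% (9.08 to 11.6), a ratio of 0.991 (0.837 to 1.17). After thinning every cell to 5000 UMIs, which left out 1387 control and 1517 mutant cells, 12.4% (11.2 to 13.6) and 10.1% (8.85 to 11.5) of collagen-rich cells were gated, a ratio of 0.817. How much mesenchyme stayed on an eye cup at dissection was not measured, so cell loss and dissection cannot be told apart. Gated cells with 4 or 5 markers made up 2.85% and 2.56% of collagen-rich cells, a ratio of 0.896 (0.638 to 1.25).

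Between genotypes, 50 of 10268 genes with at least 50 UMIs were at least 2-fold higher in mutant gated cells (0.487%) and 35 at least 2-fold lower (0.341%). The total of both ranged from 36 to 317 over 17 alternatives, which included a selection by sex-linked genes. The markers, which the rule used, were at log2 ratios of -0.33 for Scx, -0.28 for Meox1, -0.29 for Meox2, -0.12 for Mkx and 0.27 for Tnmd, and the other collagen-rich cells gave -0.44, -0.32, -0.53, -0.33 and 0.70. Scx and Tnmd therefore differed in the same directions in cells outside the gate.
Of 24 tendon matrix genes measured, 1 was at least 2-fold higher and none lower, but 17 had counting intervals above 0 and 2 below, where 8.43% of all genes tested lay above and 8.18% below, with a median of 0.31 against 0.00 over all genes. The same list gave 0.40 in the other collagen-rich cells. Col5a2, for example, was at 480 CPM in control and 599 in mutant gated cells, a log2 ratio of 0.32 (0.24 to 0.40), and 0.51 in the other cells. Col1a1 was at 3515 and 4518, a log2 ratio of 0.36 (0.33 to 0.39) in gated and 0.55 in other cells.

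For a few matrix genes the ratio in gated cells is set beside that in the other collagen-rich cells, and the difference between the ratios was not tested. Aspn, asporin, a proteoglycan of tendon and ligament, went from 50.8 CPM (control) to 88.8 CPM (mutant), a log2 ratio of 0.81 (0.58 to 1.03), where the other collagen-rich cells gave 0.14 (0.06 to 0.21). Htra3, a serine protease, was at 17.2 and 33.2, a log2 ratio of 0.95 (0.56 to 1.34), beside 0.48 (0.33 to 0.63). Lox, the collagen crosslinking oxidase, gave 0.35 (0.23 to 0.48) beside -0.07 (-0.12 to -0.03). The 5 richest cells held no more than 22.9% of the UMIs of these genes in either library.
Thbs4 gave -0.09 (-0.37 to 0.18) in gated and 1.14 (0.98 to 1.30) in other cells. Cluster 13 held 31.4% of control but 22.9% of mutant gated cells, and its part in these differences was not tested.

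**Figure D5:**
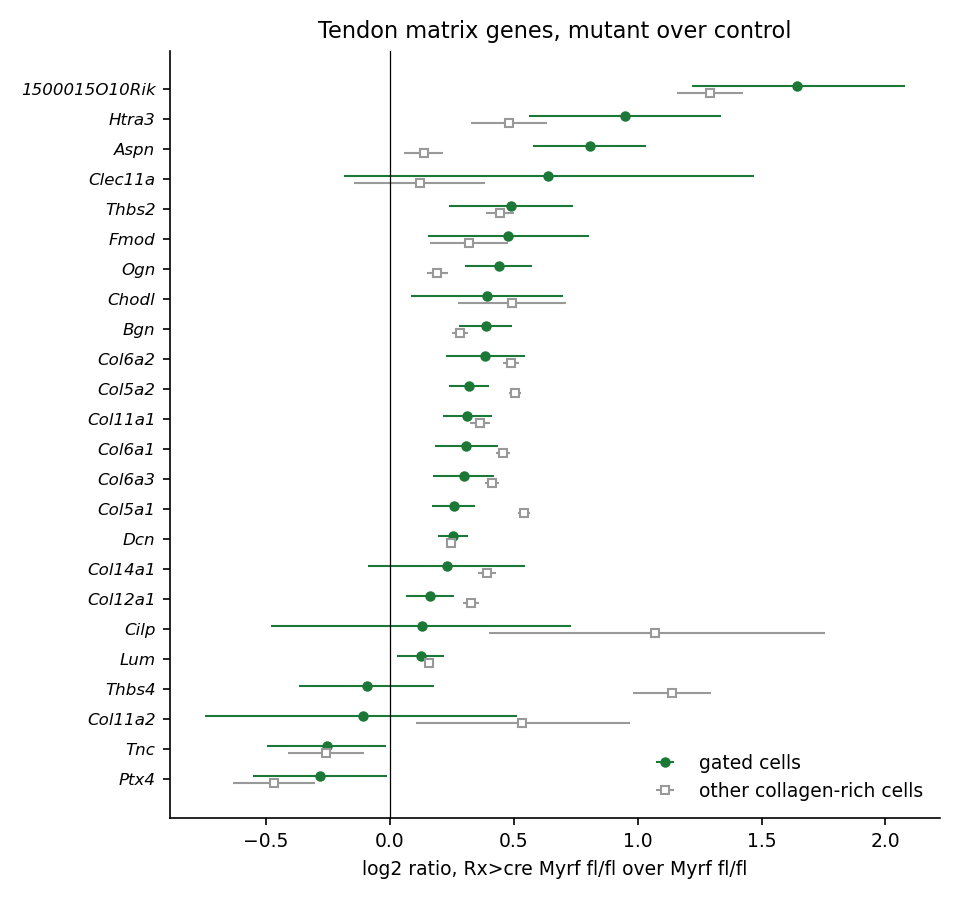
log2 ratio of mutant over control (horizontal axis) for the 24 tendon matrix genes with at least 50 UMIs in gated cells (vertical axis), in gated cells (green circles) and in the other collagen-rich cells (grey squares), with 95% counting intervals. Most genes lie above 0 in both sets of cells, Aspn and Htra3 lie further right in gated cells (0.81 and 0.95 against 0.14 and 0.48), and Thbs4 lies at -0.09 against 1.14.

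Most of the genes with the firmest counting intervals came from few cells or belonged to other cell types. Hbb-y and Hba-x, embryonic globins, had 7376 and 1114 UMIs in the control against 8 and 1 in the mutant, with 99.5% of each in 5 control cells. Ttr, a transthyretin transcript of pigment epithelium, had 3 control and 117 mutant UMIs, all of the latter in 5 or fewer cells. Gal had 60 and 332 UMIs with 98.2% of the mutant ones in 5 cells, Ttn 9 and 49 with 100%, and Pbld1 9 and 41 with 87.8%. Dct, of pigment cells, had 120 and 26, with 96.7% of the control ones in 5 cells.
Among genes of retinal cells, Fgf15 was at 56.7 and 132 CPM and Espn at 3.05 and 12.5. Of 10 neural retina genes measured, 7 had intervals above 0 and 1, Elavl4, below (8.43% and 8.18% over all genes). The 5 richest cells held 86.6% of the control and 65.5% of the mutant UMIs of Elavl4, whose ratio changed sign in some alternatives. The list's summed level was 565 and 780 CPM in gated cells, and its median was 0.55 in gated and 0.43 in other collagen-rich cells. In Xist-positive cells without Y-linked UMIs (330 control and 80 mutant cells) this median was -0.85, and in cells with 4 or 5 markers 2.08, so its direction changed with the cells taken. Its part in the other differences was not tested.
1500015O10Rik, also called Ecrg4, a secreted peptide precursor, was at 12.03 CPM in 12.1% of control cells and 37.6 in 25.7% of mutant cells, a log2 ratio of 1.64 (1.22 to 2.08), and 1.29 (1.16 to 1.43) in the other cells. Ecm1, a matrix glycoprotein, was in 3.55% and 11.8% of cells, and Ndufa4l2, a hypoxia-responsive mitochondrial protein, in 6.80% and 11.8%. The 5 richest cells held 87.9% and 57.4% of the UMIs of Ecm1 and 55.3% and 55.1% of those of Ndufa4l2.
Rprm, a p53-induced cell cycle inhibitor, was at 38.1 and 14.2 CPM, a log2 ratio of -1.42 (-1.86 to -1.0), against -0.23 in the other cells, and Nrsn1 at 10.0 and 3.13. Gm14296, Gm4631 and Gm14305, predicted genes, gave -2.95, -2.77 and -2.22 in gated and -2.30, -1.78 and -1.93 in other cells. Whether reads of these predicted genes are split with similar copies was not tested. Tsix, the antisense partner of Xist, gave -1.75, beside the different shares of Xist-positive cells.

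Of 15 cell cycle genes 6 had intervals above 0 and 1 below (8.43% and 8.18% over all genes), with a median of 0.08, and mitotic genes led: Mki67 was at 71.6 and 130 CPM, Ube2c at 190 and 295 and Cenpf at 97.7 and 147, and the replication genes Mcm2, Mcm3, Mcm5 and Mcm6 gave log2 ratios between -0.23 and 0.06. For p53 targets 0 of 9 measured had an interval apart from 0, with a median of 0.01. Of 8 dissociation stress genes measured, 0 had intervals above 0 and 3 below, beside the same 8.43% and 8.18% over all genes. Their median was -0.18 in gated and -0.14 in other cells, with Fos at 30.9 and 15.4 CPM and Jund at 844 and 635 in gated cells.
Of 17 periocular and craniofacial transcription factors, 2 had intervals above 0 and 4 below (8.43% and 8.18% over all genes), with a median of -0.18 in gated and -0.16 in other cells. Those below included Tbx18 (-0.37), Twist1 (-0.34) and Prrx1 (-0.26). Tfap2b, a neural crest factor, was at 40.4 and 69.1 CPM, a log2 ratio of 0.77 (0.52 to 1.03), where the other cells gave -0.10, with 40.4% and 49.5% of its UMIs in 5 cells. Lmx1b, a transcription factor of periocular mesenchyme, was at 24.8 and 39.0, a log2 ratio of 0.65 (0.32 to 0.99) against 0.09, with 11.6% and 14.2% in 5 cells. Lists of other cell types were not absent. The 7 erythroid genes summed to 13549 and 12174 CPM in gated cells (7356 and 6652 in the other collagen-rich cells), with medians of 0.93 and 0.88, 5 genes above 0 in both libraries (30.4% of all genes tested) and 80.1% and 98.3% of the UMIs in 5 cells. The 6 endothelium genes summed to 84.4 and 80.6 CPM in gated cells (108 and 117 in the other collagen-rich cells), with Kdr at 37.5 and 31.3 and Emcn at 32.3 and 33.2, while Cdh5 was at 0.718 and 0.241. The 10 muscle genes summed to 45.4 and 55.4 CPM (50.03 and 55.8 in the others), with Tnnt1 at 29.6 and 30.8, Myog at 0.539 and 0 and Pax7 at 0 and 1.44. The 6 macrophage genes summed to 60.7 and 75.6 CPM (39.6 and 8.89 in the others), with no UMI in 96.7% and 95.1% of gated cells and 98.2% and 97.8% of the UMIs in 5 cells. The part of these lists in the results was not tested.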

How the data were processed

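Single cell RNA was captured from 1 control and 1 mutant library. The deposited values were raw UMI counts per gene and barcode, which the authors made with Cell Ranger 7.1.0 on mm10 and analysed with Seurat 4.1.1, per the labels (the matrix header names software version 3.1.0). Counts were read with Python 3.11.15, numpy 2.4.6, scipy 1.17.1 and pandas 2.3.3, summed over the cells of a set and scaled to 1000000 UMIs of that set (CPM). Intervals at 95% were exact Poisson, Clopper-Pearson or conditional binomial intervals. They cover counting error only, and cells of 1 library are not replicates. A gene was compared with 50 or more UMIs and called at a 2-fold ratio, and the floor for 0 UMIs was 3 counts per set. The ratio code was tested on simulated counts.

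The members, markers and gene lists were chosen with earlier results of these data known. Named genes were those of the rule, up to 6 per list by size of ratio, the 15 highest and 8 lowest against other collagen-rich cells, and the 10 in each direction between genotypes whose intervals lay farthest from 0. Other genes (of clusters, of marker number and single list genes such as Thbs4) were chosen after their values were seen. Of 272 list entries, 2 symbols were found through a synonym.

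Collagen-rich cells were clustered with scanpy 1.11.5 and leidenalg 0.10.2 (resolution 1, 30 principal components, 15 neighbours, 1972 variable genes). Scrublet marked no mutant cell at its automatic threshold of 0.573, so the control's 0.208 was used for both (366 and 350 cells, 3.06% and 2.69%), a choice made after seeing the data. Doublets were kept in the main values. Alternatives changed the filters, marker rule, depth, totals, gene minimum and sex-linked selection. A few genes that the rule would name are not reported here.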

Additional observations from a re-analysis of the deposited data

Results flagged for a closer look

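Some values were seen outside the main measurement or differed in direction between the libraries. Y-linked transcripts were present in 58.8% of mutant gated cells and in 0 of 338 control gated cells. The part of sex in the other differences was not tested beyond the selection of Xist-positive cells without Y-linked UMIs.

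The log2 ratio of gated over other collagen-rich cells lay on opposite sides of 0 in the libraries, counting intervals included, for a group of mitotic genes. Mki67 gave -0.52 in the control and 0.34 in the mutant, Top2a -0.38 and 0.27, Cdk1 -0.17 and 0.17, Ccnb1 -0.39 and 0.22, Cenpf -0.43 and 0.33, and Ube2c -0.38 and 0.44. Of the clusters led by cell cycle genes, cluster 17 held 15 of 338 control (4.44%) and 14 of 245 mutant gated cells (5.71%), and cluster 0 held 25 (7.40%) and 13 (5.31%). The difference between libraries was not tested, since each genotype had 1 library.

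The matrix gene Aspn gave -0.32 in the control and 0.35 in the mutant. Sfrp2, a secreted Wnt modulator from the set for retinal progenitors, gave -0.10 and 0.11. Genes of other cell types also changed sign: Ttn gave -1.27 and 0.84, Atoh7 0.35 and -0.14, Ttr -6.20 and 3.46, Pmel -1.08 and 0.29, Hbb-y 2.64 and -6.29, and Hba-x 1.39 and -6.69. These differences were not tested either, and the UMIs of Ttn, Ttr, Hbb-y and Hba-x came mostly from 5 or fewer cells in the library where they were high.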

How the results depend on the processing

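No paired analysis was possible because each genotype had 1 library. The mutant over control ratio of shares lay between 0.536 and 0.681 of kept cells and between 0.817 and 1.03 of collagen-rich cells, the lowest (0.536 and 0.817) with cells thinned to 5000 UMIs. The tendon matrix median between genotypes stayed between 0.20 and 0.34.

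The tendon matrix median of gated over other collagen-rich cells also moved. In the control it was -0.065 with 3 or more markers, -0.59 without the 5 richest cells, and 0.056 with 4 or 5 markers, a change of sign. In the mutant it was -0.41 with mitochondrial shares of at most 5%, -0.40 in Xist-positive cells without Y-linked UMIs, and -0.45 without the 5 richest cells. The neural retina median between genotypes was 1.35 with doublets removed, 0.98 with 3 or more markers, 1.38 with 2 or more of Scx, Tnmd and Mkx, 0.92 without the 5 richest cells, 2.08 with 4 or 5 markers, and -0.85, a change of sign, in Xist-positive cells without Y-linked UMIs. Genes higher than in other collagen-rich cells numbered 191 with 3 or more markers, 248 with 4 or 5, 66 in Xist-positive cells without Y-linked UMIs and 49 without the 5 richest cells. Genes 2-fold different between genotypes numbered 144 with 2 or more of Scx, Tnmd and Mkx, 224 in Xist-positive cells without Y-linked UMIs, 172 without the 5 richest cells, 317 at a minimum of 20 UMIs and 36 at 100, against 85.

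Single genes that changed sign were Gal (-0.73 with doublets removed, -2.21 in Xist-positive cells without Y-linked UMIs, -0.81 without clusters of other cell types), Ttn (-0.79 with 20 or more collagen UMIs, -0.062 in Xist-positive cells without Y-linked UMIs, -1.81 without clusters of other cell types), Dct (1.73 with doublets removed, 0.0082 without the 5 richest cells), Elavl4 (2.42 with 2 or more of Scx, Tnmd and Mkx, 0.045 without the 5 richest cells, 3.23 with 4 or 5 markers, 0.22 without clusters of other cell types) and, against other collagen-rich cells in the control, Caln1 (-0.16 with 4 or 5 markers). The causes were not tested. The sets with 4 or 5 markers and without clusters of other cell types were chosen after seeing the data.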
